A study of Mus musculus with 22 samples.

Results

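The genes described here make the machinery that splices, packages and unwinds messenger RNA. They were chosen by name, as every array probe with a single gene symbol that begins with Snrp, Sf3a, Sf3b, Srsf or Sfrs, Hnrnp or Hnrp, Prpf, Ddx or Dhx, with the sex-linked pair Ddx3x and Ddx3y left out. The rule found 75 probes for 74 of the 9230 genes with such a probe, and 70 of these probes, for 69 genes, were bright enough to be tested. They comprised 10 genes of snRNP proteins, 5 of SF3 subunits, 8 of PRP factors, 9 of SR proteins, 12 of hnRNPs, 19 of DDX helicases and 11 of DHX helicases. The rule works on names, so it also takes in helicases whose known work lies outside splicing.

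RNA came from the anterior neural tube of Folr2-/- embryos, which lack a folate receptor gene, and this deletion was carried by the controls too. Dams were injected intraperitoneally at GD7:12 and GD8:12, that is at hour 12 of gestational days 7 and 8. The treated arm received sodium arsenate at 9.6 mg of arsenic per kg, and the control arm received water, 10 µL for each g of body weight. Tissue was taken at GD8:15, GD9:00 and GD9:12, which are 3, 12 and 24 h after the second injection, while the neural tube is closing. In order of stage there were 4, 4 and 3 control arrays, with 4, 3 and 4 arsenic arrays. The labels tie no array to a dam, so a p-value here reflects just the scatter of these samples, which may be technical, and no group without the deletion was analysed here.

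A spliceosome is built anew on each intron from small nuclear ribonucleoproteins (snRNPs), whose Sm proteins form a ring around the RNA. The SF3 complexes hold the U2 snRNP on the branch point, and PRP factors and DEAH-box (DHX) helicases drive the rearrangements that lead to catalysis. SR proteins mostly promote, and hnRNPs often oppose, the use of nearby splice sites, while DEAD-box (DDX) helicases serve splicing, RNA export and ribosome assembly. Dividing neuroepithelium is known for high levels of many of these proteins.

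The promoters of 5 members are shown because these were the members whose level rose between GD8:15 and GD9:00 in both arms. Each run is the 250 bases before the annotated start, read 5′ to 3′ on the gene's strand, from RefSeq on GRCm38.p6. Capitals mark matches on either strand to the GC box, spelled GGGCGG, to the CCAAT box, to a core bound by ETS factors and spelled CCGGAAG, to the palindrome TGCGCA of many housekeeping promoters, and to the TATA box, spelled TATAAA. All overlapping matches were counted.
Hnrnpu, chr1:178337816-178338065, minus strand: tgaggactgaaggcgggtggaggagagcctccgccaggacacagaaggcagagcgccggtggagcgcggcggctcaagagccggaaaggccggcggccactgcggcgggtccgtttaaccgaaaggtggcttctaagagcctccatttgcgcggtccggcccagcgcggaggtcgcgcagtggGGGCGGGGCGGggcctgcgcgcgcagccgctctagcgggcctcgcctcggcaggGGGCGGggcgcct
Hnrnpa1, chr15:103240147-103240396, plus strand: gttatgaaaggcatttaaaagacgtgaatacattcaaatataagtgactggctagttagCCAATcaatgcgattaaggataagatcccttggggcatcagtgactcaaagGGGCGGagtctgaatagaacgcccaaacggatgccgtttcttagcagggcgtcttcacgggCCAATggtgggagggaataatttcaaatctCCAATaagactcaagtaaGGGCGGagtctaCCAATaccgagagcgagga
Snrpb2, chr2:143062819-143063068, plus strand: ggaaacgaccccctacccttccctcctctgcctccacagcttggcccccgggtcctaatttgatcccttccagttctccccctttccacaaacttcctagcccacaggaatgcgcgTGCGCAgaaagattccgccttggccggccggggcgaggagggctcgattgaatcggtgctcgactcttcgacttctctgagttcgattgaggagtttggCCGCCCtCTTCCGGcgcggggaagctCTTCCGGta
Snrpf, chr10:93589659-93589908, minus strand: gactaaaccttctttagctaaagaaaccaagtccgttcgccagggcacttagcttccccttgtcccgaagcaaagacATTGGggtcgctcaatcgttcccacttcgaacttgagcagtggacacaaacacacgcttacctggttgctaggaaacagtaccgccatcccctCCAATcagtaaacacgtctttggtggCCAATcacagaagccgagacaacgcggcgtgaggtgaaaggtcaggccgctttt
Ddx56, chr11:6267730-6267979, minus strand: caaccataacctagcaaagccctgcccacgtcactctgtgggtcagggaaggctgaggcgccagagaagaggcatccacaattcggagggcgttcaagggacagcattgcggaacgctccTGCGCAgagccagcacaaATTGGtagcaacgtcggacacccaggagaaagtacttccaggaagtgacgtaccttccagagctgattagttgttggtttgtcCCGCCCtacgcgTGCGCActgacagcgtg
The promoters were not alike in these letters. Hnrnpu had 3 GC boxes and no match to the other 4 motifs, and Snrpf had 3 CCAAT boxes and no GC box. Hnrnpa1 had 4 CCAAT boxes and 2 GC boxes. Snrpb2 had 1 GC box, 2 ETS cores and 1 TGCGCA, and Ddx56 had 1 GC box, 1 CCAAT box and 2 TGCGCA. None of the 5 held TATAAA.

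RefSeq promoters were matched to 68 of the 74 members, with 89 starts in all, and not to Ddx23, Ddx39a, Ddx6, Dhx38, Dhx58 or Snrpb. Among the member promoters 65.2% held a GC box, against 32.7% of all 32851 promoters of this length. CCGGAAG stood in 28.1% of member promoters and 6.91% of all, TGCGCA in 22.5% and 6.43%, and CCAAT in 42.7% and 33.8%. The order turned for TATAAA, found in 7.87% of member promoters and 12.4% of all. These shares describe letters in a window, and some members contributed several starts.

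Intensities are given as log2 values after quantile normalisation, so a level is relative to the other probes of its array. The mean correlation of an array with the others of its group ran from 0.87 (arsenic GD8:15 replicate 3) to 0.971. It was also low for arsenic GD8:15 replicate 4 (0.893), control GD9:00 replicates 2 and 1 (0.894 and 0.9) and arsenic GD9:00 replicate 3 (0.903). Long runs of neighbouring probes read low on some arrays, most on control GD9:00 replicates 1, 2 and 4, where 10.7%, 10.1% and 7.94% of probes and 12, 8 and 1 member values lay in them. Each sample title ends in a number that the labels do not explain, and the arrays were sorted here by its leading digits into code series called A to D. All GD9:00 arrays and all but 1 at GD9:12 were series C, whereas 7 of the 8 GD8:15 arrays were not, so for every comparison with GD8:15 stage and code series largely coincide. For the 92 genes that have 2 probes among those tested, the paired probes correlated over the 22 arrays with a median r of 0.0489, and 42 pairs lay below 0, so a value stands for its probe first and for its gene second. Folr2 was dim in every group, at 6.68 to 7.47 on single arrays, in the 2.93 percentile of probes.

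Markers of the neural tube were measured for 12 of 14 listed genes, with list means of 8.56 to 8.72 in GD8:15 controls and 9.25 to 9.27 in GD9:12 controls. Heart and muscle genes, 12 of 13, averaged 8.73 to 9.03 in controls at GD8:15, 8.15 to 8.89 at GD9:00 and 7.80 to 8.01 at GD9:12, with Actc1 at 13.29 and Myl7 at 13.31 in GD8:15 controls. In the arsenic arm the heart list averaged 8.13 to 8.55, 8.60 to 9.14 and 7.80 to 8.03 at these stages. Blood genes, 6 of 10, moved from 7.32 to 8.19 in GD9:00 controls to 8.80 to 9.03 in GD9:12 controls. Xist, the RNA that coats the inactive X chromosome of female cells, read 7.02 to 7.10 in GD8:15 controls and 7.86 to 9.06 in GD8:15 arsenic arrays. At GD9:00 Xist read 7.10 to 8.71 in controls and 9.77 to 10.35 in arsenic arrays, and at GD9:12 6.88 to 11.34 and 6.93 to 7.15. At GD8:15 the Y-linked genes of the sex list had lower means with arsenic, opposite to Xist. Kdm5d averaged 10.84 in controls and 10.73 with arsenic there, and Uty 7.38 and 7.25. At GD9:12 Eif2s3y (7.395 and 7.773) and Uty (7.359 and 7.484) again ran opposite to Xist (8.404 and 7.061). Kdm5d (11.48 and 10.84) did not. At GD9:00 the Y-linked genes did not mirror Xist as a set. Eif2s3y read 7.66 to 7.79 in controls and 7.11 to 7.30 with arsenic at GD8:15, and 7.06 to 7.89 and 7.02 to 7.18 at GD9:00. Kdm5d at GD9:00 read 8.78 to 11.03 in controls and 10.54 to 11.54 with arsenic, and Uty 6.90 to 7.52 and 7.25 to 7.61, so both had the higher mean with arsenic, as Xist did. The part of these markers in the results below was not tested, and in bulk RNA fewer cells of a type cannot be told apart from less RNA per cell.

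Most members were bright. Their median probe stood at the 80.5 percentile of all probes, with a level of 8.75 where the median of all probes was 7.56. The snRNP proteins stood highest (median percentile 90.1), followed by hnRNPs (86.4), SR proteins (82.4), PRP factors (82.0) and DHX helicases (77.5). DDX helicases (57.7) and SF3 subunits (55.6) lay near the middle of the array. The brightest probes were those of Snrpf (13.46), Hnrnpd (13.3), Hnrnpm (13.23) and Prpf3 (12.55). Srsf4, Sf3b1, Prpf31, Dhx34 and Dhx30 fell below the brightness limit for testing, which was a mean of 7.20.

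In controls 14 members rose and 1 fell between GD8:15 and GD9:00, and between GD9:00 and GD9:12 1 rose and 14 fell. A member is called here when its limma p-value, adjusted by Benjamini-Hochberg over all 7833 tested probes, was under 0.05. In controls 15 of 70 member probes were called from GD8:15 to GD9:00, beside 15.0% of all tested probes, 14 of them higher (20.0%, against 8.16% of all tested probes) and 1 lower (1.43%, against 6.83%). From GD9:00 to GD9:12 another 15 calls were made, beside 11.3% of all, 1 higher (1.43%, against 3.83%) and 14 lower (20.0%, against 7.44%). Both steps share the GD9:00 controls, so a high level there enters the pair of comparisons with opposite signs. The difference was above 0 for 49 of 70 member probes at the first step (70.0%, against 47.6% of all) and for 27 at the second (38.6%, against 54.5%). The median member difference was 0.24 for the first step and -0.18 for the second, where all tested probes had medians of -0.02 and 0.03.

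**Figure D1:**
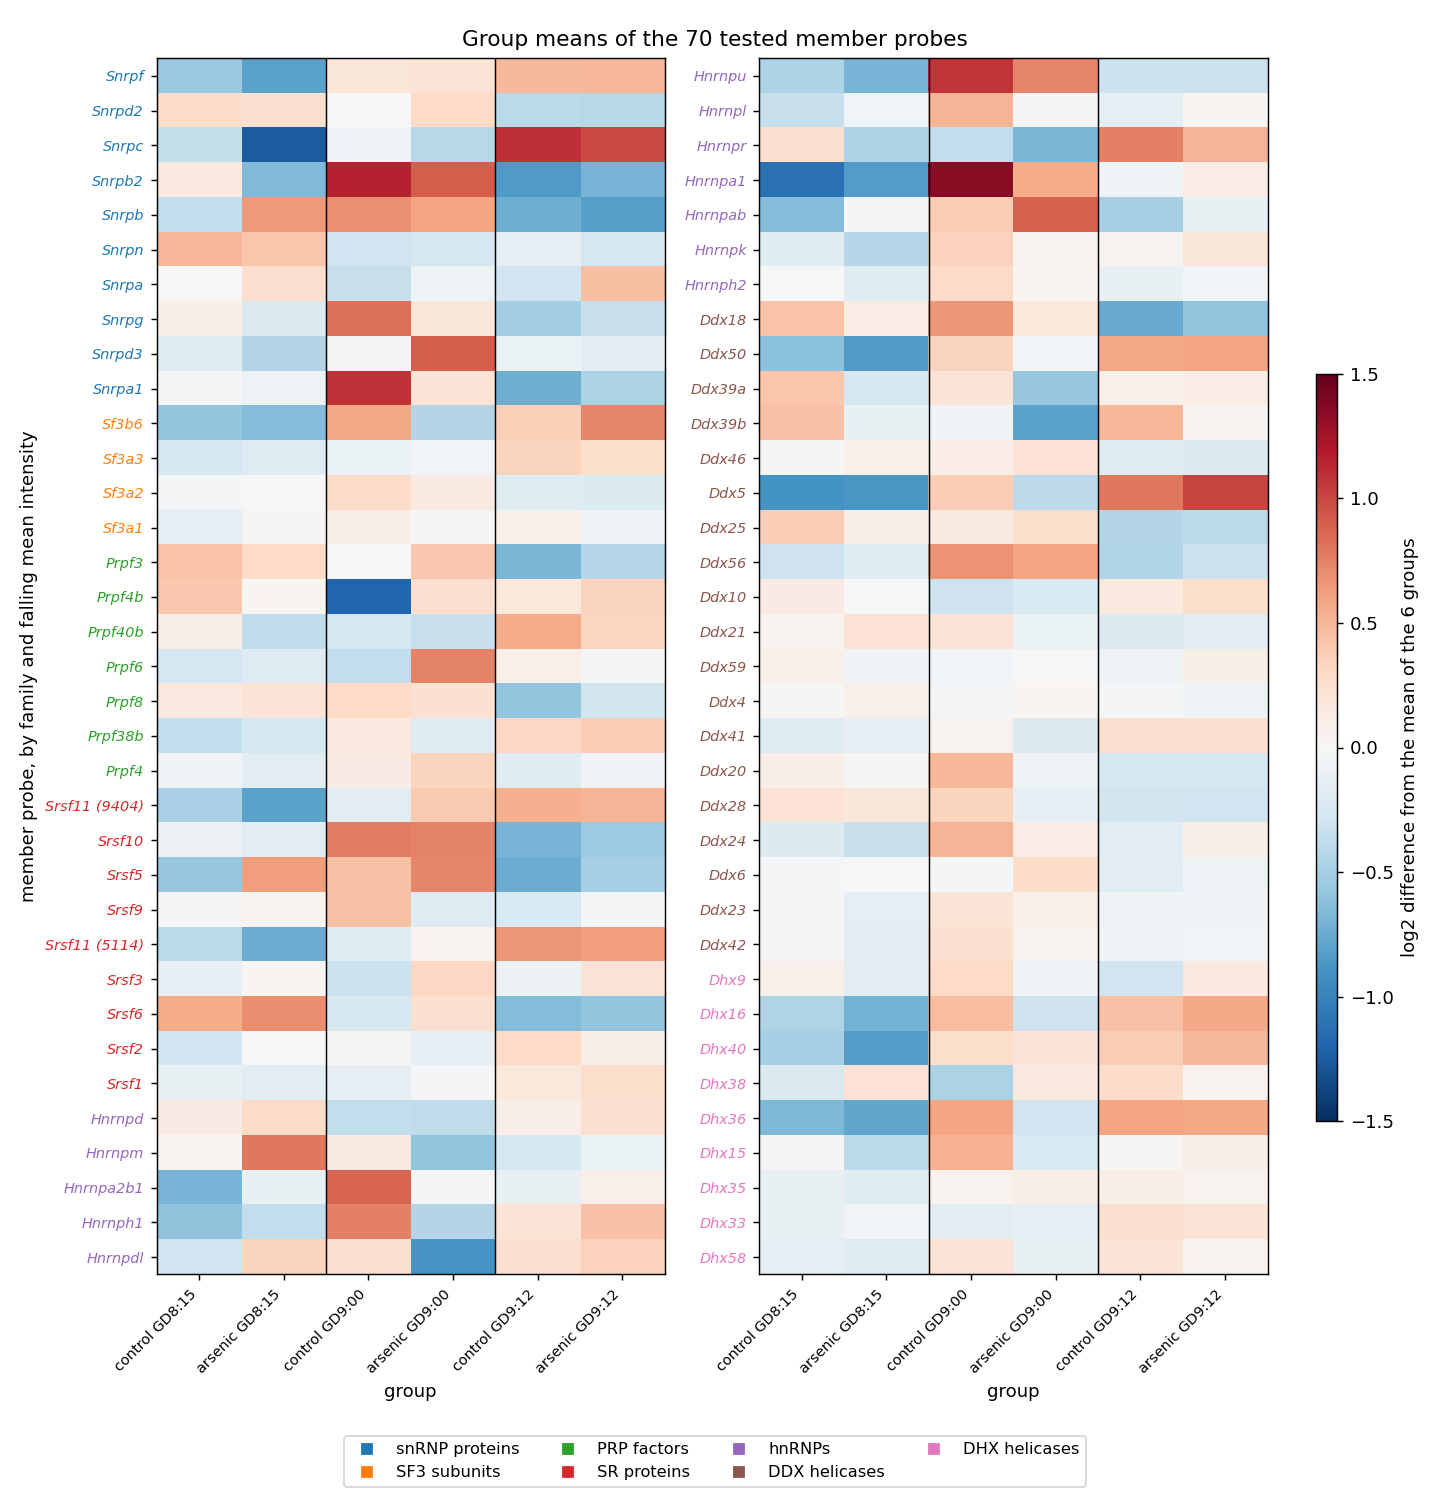
Group means of the 70 tested member probes (vertical axis, coloured by family), each as the log2 difference from the mean of its 6 group means, for control and arsenic groups at 3 stages (horizontal axis). The colour scale ends at ±1.5; Hnrnpa1, Snrpb2 and Hnrnpu are at their highest in the GD9:00 controls, and Snrpc is at its highest at GD9:12.

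In the arsenic arm GD9:00 was represented by 3 arrays. From GD8:15 to GD9:00 5 members were called, beside 4.21% of all probes, and all were higher (7.14%, against 2.40% of all probes higher and 1.81% lower). From GD9:00 to GD9:12 there were 7, beside 3.88% of all probes, with 2 higher (2.86%, against 1.90%) and 5 lower (7.14%, against 1.98%). The difference was above 0 for 49 of 70 member probes at the first arsenic step (70.0%, against 47.3% of all). At the second arsenic step it was above 0 for 36 (51.4%, against 46.9%). The median member difference was 0.13 and then 0.02, where all tested probes had -0.02 at each step. Over the whole span from GD8:15 to GD9:12, 19 members were called in the arsenic arm, beside 13.8% of all probes, 15 higher (21.4%, against 7.23%) and 4 lower (5.71%, against 6.59%). Controls had 7 calls over that span, beside 7.71% of all probes, 2 higher (2.86%, against 3.77%) and 5 lower (7.14%, against 3.94%). All 19 called with arsenic had the same sign in controls over the span, and all 7 called in controls had the same sign with arsenic. Whether the arms differ in these steps is asked by the F test given with the arsenic comparison, which called no member.

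Control and arsenic arrays are separate samples, so calls in both arms can be set side by side. The calls are not independent, because the model shares 1 estimate of the spread per probe between the arms. For steps from GD8:15 the arms also largely share the change of code series. Hnrnpu, Hnrnpa1, Snrpb2, Snrpf and Ddx56 rose from GD8:15 to GD9:00 in both, which is 33.3% of the 15 members called in controls and 100% of the 5 called with arsenic. Among all tested probes 2.91% were called in both arms with 1 sign at this step, against 7.14% of members. These were 228 probes, out of 1174 called in controls and 330 called with arsenic. From GD9:00 to GD9:12 Hnrnpu, Snrpb2, Ddx56 and Srsf10 fell and Hnrnpr rose in both. They were 33.3% of the control calls and 71.4% of the arsenic calls, and 7.14% of members against 2.49% of all probes. Of all probes 195 were called in both, out of 883 called in controls and 304 with arsenic. From GD8:15 to GD9:12 Snrpf and Dhx16 rose and Prpf3 and Srsf6 fell in both. They were 57.1% and 21.1% of the calls, and 5.71% of members against 5.27% of all probes. For all probes it was 413 in both, out of 604 called in controls and 1082 with arsenic.

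**Figure D2:**
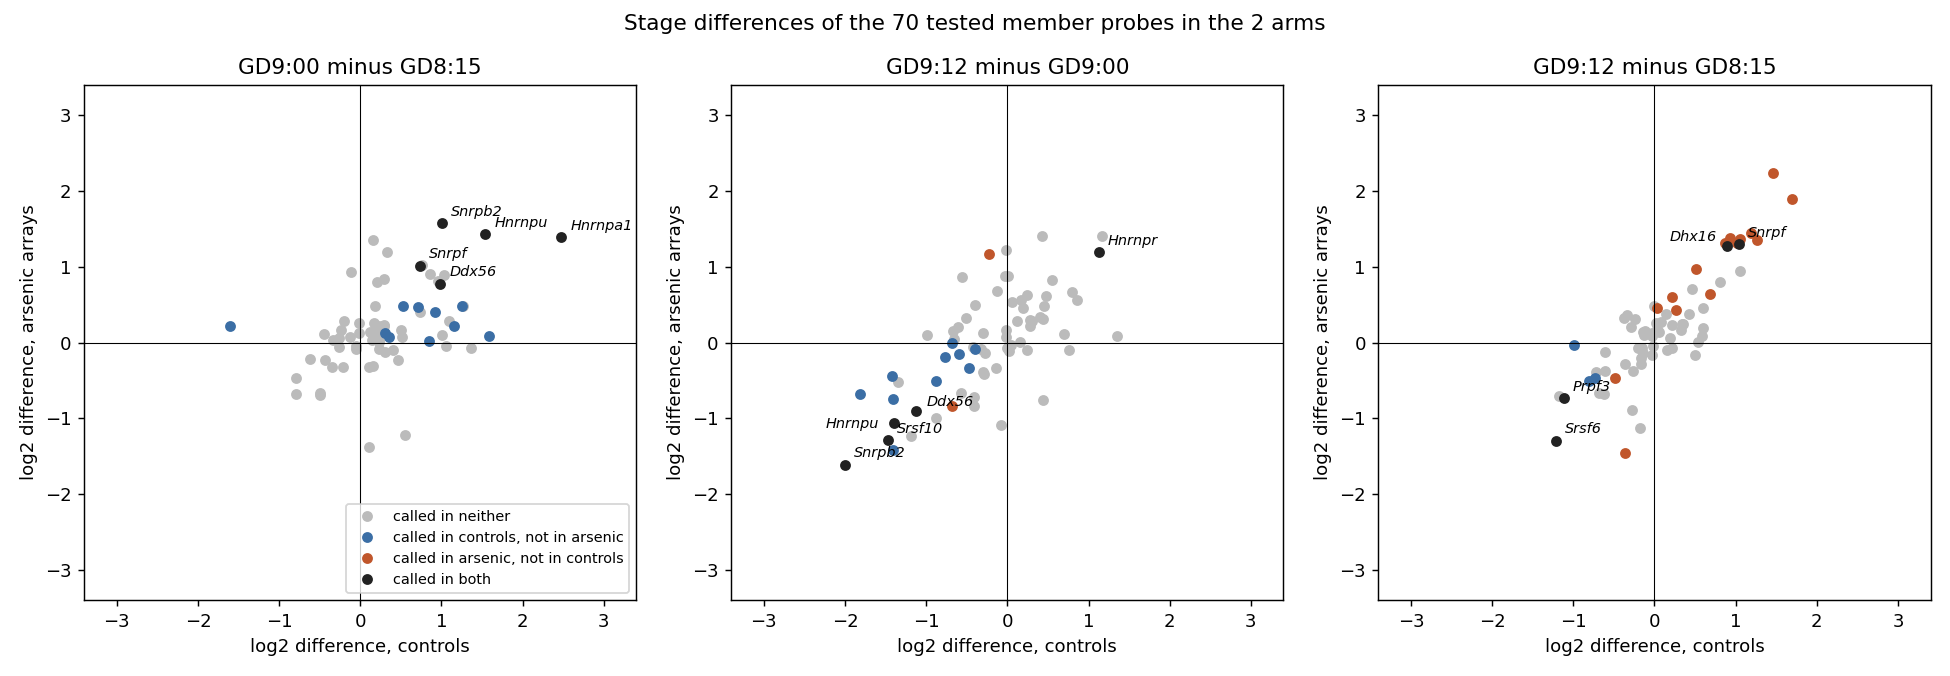
Log2 difference between stages in controls (horizontal axis) and in arsenic arrays (vertical axis) for the 70 tested member probes, with 1 panel per pair of stages. Black points were called in both arms and are named; Hnrnpa1 lies at 2.48 in controls and 1.39 with arsenic in the first panel, and Snrpb2 at -2.00 and -1.61 in the second.

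These directions depend on the scaling. The counts below are of members alone. The share of all probes called in each setting is not given, so these counts do not set the members apart from the array. With the intensities as the authors scaled them, the median of all probes shifted by -0.49 for the first control step and 0.79 for the second. That scaling had a different target mean by stage, near 600, 500 and 1000, so a stage difference under it includes the change of target. The control calls were then 13 for the first step, 7 of them higher, and 37 for the second, 34 of them higher. The arsenic calls were 0 for the first step and 29, all higher, for the second. With each array centred on its median the control steps gave 13 calls, all higher, and 18 calls, 4 of them higher, and the arsenic steps gave 0, and 9 that were all higher. Against the median of all probes the members stood higher at the first control step under each scaling (0.35 against 0.02 with median centring, -0.16 against -0.49 with the authors' scaling). At the second control step they stood lower (-0.02 against 0.08, and 0.69 against 0.79). With the code series as a block, 0 members were called in each of the 4 stage comparisons that involve GD8:15. Those then rest on the 1 GD8:15 array of series C, so the 0 does not show which of their calls would hold. From GD9:00 to GD9:12, 13 control and 5 arsenic calls stood.

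Among the snRNP proteins Snrpb2, the U2 snRNP protein that binds the stem-loop of U2 RNA together with Snrpa1, was highest at GD9:00. Control arrays of Snrpb2 read 10.33, 10.77, 10.58 and 9.66 at GD8:15, 11.05, 11.51, 10.86 and 11.93 at GD9:00, then 9.29, 9.41 and 9.31 at GD9:12. Arsenic arrays read 9.45, 9.97, 8.97 and 9.68, then 11.22, 11.36 and 10.71, then 9.18, 9.72, 9.61 and 9.44. Every GD9:00 array lay above every array of the other stages in its arm. The rise was 1.00 ± 0.259 (SE, limma adjusted p = 0.0153) in controls and 1.57 ± 0.28 (adjusted p = 0.00382) with arsenic. The fall to GD9:12 was the largest among the tested members in controls, -2.00 ± 0.28 or 3.99-fold (adjusted p = 0.000295), and -1.61 ± 0.28 (adjusted p = 0.00403) with arsenic. The control rise missed the threshold without control GD8:15 replicate 4 or control GD9:00 replicate 4, with adjusted p up to 0.0618 and a rise of 0.78 to 1.16 over all single omissions. In controls Snrpb2 also stood lower at GD9:12 than at GD8:15, by -0.99 ± 0.28 (adjusted p = 0.0348), a call that 6 single omissions ended (adjusted p up to 0.108).

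Snrpf, which encodes a protein of the Sm ring, behaved otherwise and kept its gain. Control arrays of Snrpf read 12.60, 13.31, 13.21 and 12.62 at GD8:15, 13.52, 13.91, 13.31 and 13.95 at GD9:00, then 13.95, 13.91 and 14.08 at GD9:12. The arsenic arrays read 12.92, 12.91, 12.30 and 12.62, then 13.65, 13.68 and 13.79, then 13.61, 14.05, 14.44 and 13.87. The lowest GD9:12 array of either arm lay above every GD8:15 array of that arm, and the control groups of GD8:15 and GD9:00 met at 13.31. The difference from GD8:15 to GD9:12 was 1.04 ± 0.217 (limma adjusted p = 0.00595) in controls and 1.30 ± 0.201 (adjusted p = 0.000461) with arsenic, and no single omission ended either call. The first step was 0.74 ± 0.201 (adjusted p = 0.02) in controls, lost in 4 single omissions (adjusted p up to 0.0743: control GD8:15 replicates 1 and 4 and control GD9:00 replicates 2 and 4), and 1.02 ± 0.217 (adjusted p = 0.0121) with arsenic.

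The other snRNP proteins did not share one course. Snrpa1, a U2 protein, fell in controls from GD9:00 to GD9:12 by 1.81 on the log2 scale (SE 0.458, limma adjusted p = 0.0162), from 10.15, 10.17, 8.95 and 9.33 to 7.90, 7.89 and 7.72. Without control GD9:12 replicate 2 or 3 the adjusted p of Snrpa1 rose to as much as 0.0654. Snrpb, the Sm B protein gene, was lower at GD9:12 than at GD8:15 with arsenic (-1.46 ± 0.405, adjusted p = 0.0223). That call needed arsenic GD8:15 replicate 4, the highest array at 11.92, and arsenic GD9:12 replicate 4 (adjusted p up to 0.0606 without one of them). Over all single omissions the Snrpb difference ranged from -1.71 to -0.97. Snrpc, a U1 protein that helps recognise the 5′ splice site, rose over the same span with arsenic by 2.24 ± 0.518 or 4.72-fold (adjusted p = 0.0078), from 8.70 to 10.63 at GD8:15 to between 11.26 and 12.38. In controls the Snrpc difference was 1.46 ± 0.56 (adjusted p = 0.128). Snrpd2, the second brightest of the family, had no called difference at any step, and Snrpd2 on control GD9:00 replicate 1, which lay in a low run, read 9.43 where the other 3 arrays read 11.91 to 12.25.

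In the SF3 complexes Sf3b6, the small subunit that contacts the branch point adenosine, was the member that moved most. Control arrays of Sf3b6 read 8.24, 7.98, 8.57 and 7.87 at GD8:15, 9.34, 9.72, 8.60 and 9.64 at GD9:00, then 8.87, 9.43 and 9.01 at GD9:12. Arsenic arrays read 7.72, 8.15, 7.93 and 8.55, then 8.58, 8.73 and 7.59, then 8.97, 9.94, 9.78 and 9.19. In controls the GD9:00 arrays lay above those of GD8:15, and with arsenic the GD9:12 arrays lay above those of both earlier stages. With arsenic 8.58 and 8.73 at GD9:00 also lay above every GD8:15 array, and replicate 3 read 7.59. A change of the arsenic difference of Sf3b6 between stages was not called (limma F test, adjusted p = 0.731). Sf3b6 rose by 1.16 ± 0.293 (limma adjusted p = 0.0139) in controls at the first step and by 1.38 ± 0.293 (adjusted p = 0.00429) with arsenic from GD8:15 to GD9:12, both kept in every single omission. The second arsenic step, 1.17 ± 0.317 (adjusted p = 0.0465), was lost in 12 of 22 omissions (adjusted p up to 0.234). Sf3a2 fell in controls from GD9:00 to GD9:12 by 0.47 (SE 0.105, adjusted p = 0.00795), and with the authors' scaling this difference turned to 0.19. Sf3a3, the second brightest subunit, had no call, with group means of Sf3a3 from 7.48 to 8.08.

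PRP factors moved in both directions. Prpf3, a component of the U4/U6 snRNP, was lower at GD9:12 than at GD8:15. Control arrays of Prpf3 read 13.08, 12.78, 13.02 and 12.98 at GD8:15, then 11.89, 11.72 and 11.93 at GD9:12, whereas arsenic arrays read 13.49, 12.56, 12.69 and 12.58 and then 12.20, 11.82, 12.19 and 12.21. The groups did not overlap in either arm. The differences were -1.12 ± 0.22 (limma adjusted p = 0.00419) in controls and -0.73 ± 0.204 (adjusted p = 0.0231) with arsenic. Prpf3 is nearly the brightest member, and its direction rests on the normalisation: the arsenic difference was 0.43 both with the authors' scaling and with median centring, and the control difference of -1.12 shrank to -0.07 and -0.27. The arsenic call was also lost without arsenic GD8:15 replicate 1 or arsenic GD9:12 replicate 2 (adjusted p up to 0.0823). From GD9:00 to GD9:12 the arsenic difference of Prpf3 was -0.84 ± 0.22 (adjusted p = 0.0383), lost in 7 omissions (adjusted p up to 0.146) and turned to 0.59 and 0.33 by these scalings.

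Prpf4b, a kinase of the spliceosome, was the member that fell in controls at the first step. Control arrays of Prpf4b read 11.26, 11.19, 11.51 and 10.90 at GD8:15, then 9.09, 10.14, 10.05 and 9.18 at GD9:00, of which the last lay in a low run. The fall of 1.60 on the log2 scale (SE 0.419, limma adjusted p = 0.0174, 3.04-fold) was 1.46 with low runs masked, and was not called with median centring (1.29, adjusted p = 0.0529). At GD9:12 Prpf4b had no value on control replicate 1, and the other control arrays read 10.89 and 11.05. Prpf8, the large protein at the catalytic core of the spliceosome, fell in controls from GD9:00 to GD9:12 by 0.88 (SE 0.211, adjusted p = 0.012), from 8.29, 8.48, 8.64 and 8.81 to 7.64, 7.79 and 7.60. The call for Prpf8 was lost without control GD9:12 replicate 3 (adjusted p up to 0.0564), and its fall of 0.73 (SE 0.211, adjusted p = 0.0405) from GD8:15 to GD9:12 was lost in 7 omissions (adjusted p up to 0.133). Prpf38b rose with arsenic from GD8:15 to GD9:12 by 0.64 ± 0.191 (adjusted p = 0.0314), a call lost in 5 omissions (adjusted p up to 0.0891). The control difference of Prpf38b over that span was also above 0 and was not called, but 11 alternative settings called it.

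Of the 9 SR probes 1 was called in controls at the second step (11.1%, against 11.3% of all probes). Over the control span 1 was called (11.1%, against 7.71%). Over the arsenic span 4 were called (44.4%, against 13.8%), of which 2 were the probes of Srsf11. At the second arsenic step 1 was called (11.1%, against 3.88%). Srsf10, a splicing repressor when dephosphorylated, had its highest mean at GD9:00. Control arrays of Srsf10 read 8.39, 9.24, 9.71 and 9.09, then 10.36, 9.18, 9.38 and 10.96, then 8.42, 8.57 and 8.51 by stage, and arsenic arrays read 9.05, 9.03, 8.60 and 9.43, then 10.21, 9.84 and 9.77, then 8.49, 8.60, 8.81 and 8.71. No GD9:12 array reached a GD9:00 array of its arm. The fall was -1.47 ± 0.341 (limma adjusted p = 0.00995) in controls, kept in all single omissions, and -1.29 ± 0.341 (adjusted p = 0.0414) with arsenic, lost in 13 of 22 omissions (adjusted p up to 0.163).

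Srsf6, a regulator of alternative exons, was low at GD9:12. Control arrays of Srsf6 read 8.93, 8.99, 9.60 and 9.05 at GD8:15, then 7.92, 8.04 and 7.83 at GD9:12, whereas arsenic arrays read 9.09, 9.33, 9.38 and 9.34 and then 7.86, 7.98, 8.15 and 7.96. The groups lay apart in both arms. Srsf6 fell by 1.21 on the log2 scale (SE 0.287, limma adjusted p = 0.0143) in controls and by 1.29 (SE 0.266, adjusted p = 0.00353) with arsenic. The control call was lost without control GD9:12 replicate 3 (adjusted p = 0.0604). Over all single omissions the control difference ranged from -1.29 to -1.04. Srsf11 is the member with 2 probes, and both were called higher over the arsenic span, at 1.37 ± 0.324 (adjusted p = 0.00883) and 1.31 ± 0.43 (adjusted p = 0.0499). Their differences in controls, 1.06 ± 0.35 (adjusted p = 0.0721) and 1.02 ± 0.464 (adjusted p = 0.204), had the same sign. Srsf1, the founding SR protein, rose by 0.43 ± 0.128 (adjusted p = 0.0318) with arsenic over that span, lost in 4 omissions (adjusted p up to 0.115).

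**Figure D3:**
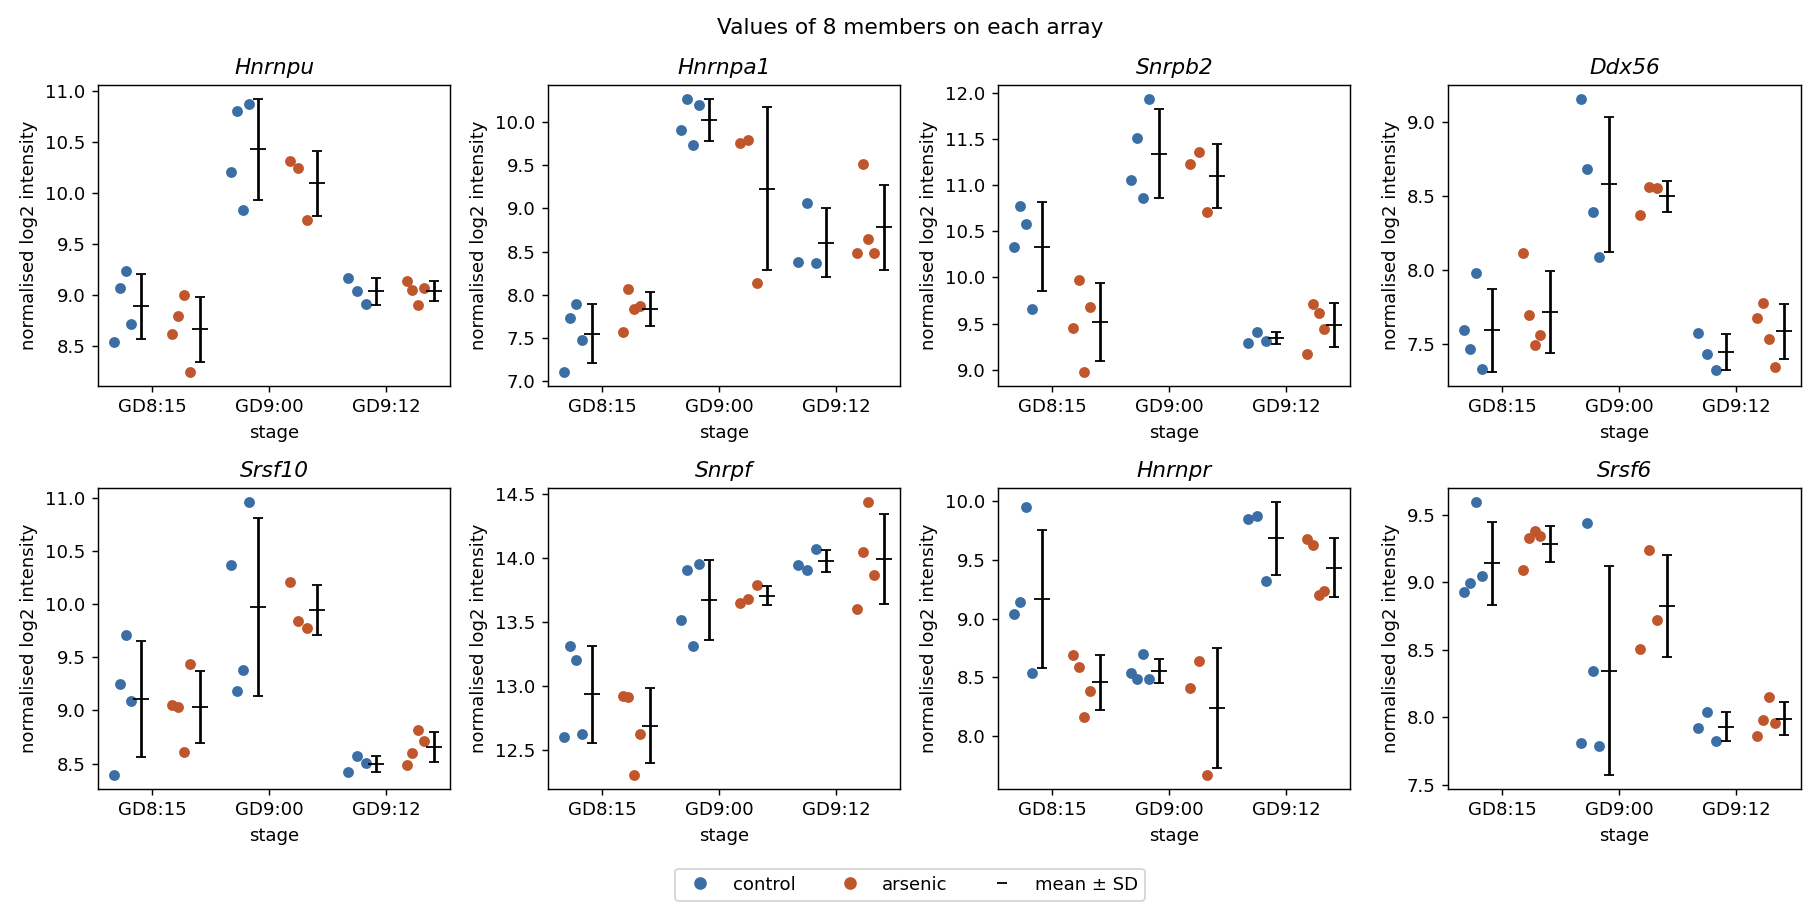
Normalised log2 intensity (vertical axis) on each array for 8 members at 3 stages (horizontal axis), with points for single arrays, blue for control and orange for arsenic, and bars for mean ± SD. Hnrnpu, Hnrnpa1, Snrpb2, Ddx56 and Srsf10 are highest at GD9:00, Snrpf stays high at GD9:12, and Srsf6 is lowest there.

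Among the hnRNPs 5 of 12 were called higher in controls at the first step (41.7%, against 8.16% of all tested probes). This was the largest count of any family, but not the largest share, which was 2 of 4 SF3 subunits (50%). Hnrnpa1, an abundant protein that competes with SR proteins for exons, had the largest rise. Control arrays of Hnrnpa1 read 7.10, 7.73, 7.89 and 7.47 at GD8:15, 9.90, 10.26, 9.74 and 10.20 at GD9:00, then 8.38, 9.06 and 8.37 at GD9:12. Arsenic arrays read 7.57, 8.06, 7.83 and 7.86, then 9.76, 9.79 and 8.13, then 8.49, 9.51, 8.64 and 8.48. In controls the 3 stages did not overlap, and with arsenic the array at 8.13 (GD9:00 replicate 3) lay just above the highest GD8:15 array. The rise was 2.48 ± 0.314 or 5.56-fold (limma adjusted p = 8.5e-05) in controls and 1.39 ± 0.339 (adjusted p = 0.0246) with arsenic. The arsenic value ranged from 1.12 to 1.97 over single omissions and missed the threshold without arsenic GD8:15 replicate 1 or arsenic GD9:00 replicate 1 or 2 (adjusted p up to 0.15). In controls Hnrnpa1 then fell by 1.42 (SE 0.339, adjusted p = 0.0117), a call lost without control GD9:12 replicate 1 or 3 (adjusted p up to 0.0619), and with arsenic the difference was -0.44 ± 0.339 (adjusted p = 0.605).

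Hnrnpu, which binds RNA and the chromatin scaffold and is needed for Xist to stay on its chromosome, was highest at GD9:00 in both arms. Control arrays of Hnrnpu read 8.54, 9.07, 9.24 and 8.71 at GD8:15, 10.21, 10.80, 9.83 and 10.87 at GD9:00, then 9.17, 9.04 and 8.91 at GD9:12. Arsenic arrays read 8.62, 8.79, 9.00 and 8.24, then 10.31, 10.24 and 9.73, then 9.13, 9.05, 8.91 and 9.07. All 7 GD9:00 arrays lay above all 15 others. Hnrnpu rose by 1.54 ± 0.217 (limma adjusted p = 0.000227) in controls and by 1.43 ± 0.234 (adjusted p = 0.0018) with arsenic, and no single omission ended these calls. The fall to GD9:12 was -1.39 ± 0.234 (adjusted p = 0.00123) in controls and -1.05 ± 0.234 (adjusted p = 0.0173) with arsenic, the latter lost without arsenic GD9:00 replicate 1 or 2 (adjusted p up to 0.0908). With the authors' scaling these falls were -0.50 and -0.09. On series C arrays alone the falls of Hnrnpu were -1.54 and -1.12, both called.

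Hnrnpr, which binds RNA in the nucleus and in neurites, ran the other way at the second step. Control arrays of Hnrnpr read 8.54, 8.49, 8.70 and 8.49 at GD9:00 and 9.85, 9.87 and 9.32 at GD9:12, and arsenic arrays 8.41, 8.64 and 7.67 and then 9.67, 9.62, 9.20 and 9.24. The stages did not overlap in either arm. Hnrnpr rose by 1.13 ± 0.266 (limma adjusted p = 0.011) in controls and 1.19 ± 0.266 (adjusted p = 0.0173) with arsenic, lost without control GD9:12 replicate 2 (adjusted p up to 0.0549) and without arsenic GD9:00 replicate 3 (adjusted p up to 0.0982). Hnrnpa2b1, a partner of Hnrnpa1, rose in controls at the first step by 1.58 ± 0.42 (adjusted p = 0.0178) against 0.08 ± 0.453 (adjusted p = 0.948) with arsenic, and Hnrnpl by 0.85 ± 0.233 (adjusted p = 0.0208). Both control calls needed replicates 1 and 4 at GD8:15, and that of Hnrnpa2b1 also control GD9:00 replicate 2 (adjusted p up to 0.0616 and 0.0777). Hnrnpd and Hnrnpm, the brightest of the family, had no call at any step, and Hnrnpm ranged from 10.42 to 13.97 within the arsenic GD9:00 group.

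Among the DDX helicases Ddx56, a nucleolar helicase of ribosome assembly, was called at both steps in both arms, as Hnrnpu and Snrpb2 were. Control arrays of Ddx56 read 7.59, 7.47, 7.98 and 7.33 at GD8:15, 9.16, 8.68, 8.39 and 8.09 at GD9:00, then 7.58, 7.44 and 7.33 at GD9:12. Arsenic arrays read 8.12, 7.70, 7.50 and 7.56, then 8.37, 8.56 and 8.55, then 7.68, 7.78, 7.54 and 7.35. Within each arm every GD9:00 array was above all arrays of the other stages. The rise was 0.98 ± 0.192 (limma adjusted p = 0.00293) in controls and 0.78 ± 0.207 (adjusted p = 0.0378) with arsenic, and the fall -1.13 ± 0.207 (adjusted p = 0.00215) and -0.91 ± 0.207 (adjusted p = 0.0191). The control calls held in all single omissions, and the arsenic calls were lost in 8 (adjusted p up to 0.131) and 3 (adjusted p up to 0.0682) of them.

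Ddx24, another nucleolar helicase, followed in controls, with 7.50, 7.20, 7.45 and 7.25, then 8.09, 7.97, 8.08 and 8.10, then 7.30, 7.46 and 7.39 by stage. Ddx24 rose by 0.71 ± 0.142 (limma adjusted p = 0.00379) and fell by 0.68 (SE 0.154, adjusted p = 0.0088), kept in all single omissions. The fall was 0.05 with the authors' scaling. Ddx20 (gemin 3, part of the complex that assembles snRNPs) fell in controls at the second step by 0.77 (SE 0.155, adjusted p = 0.00405), from 8.39, 8.34, 7.80 and 7.89 to 7.47, 7.28 and 7.26. Ddx18, the brightest helicase of the family, fell by 1.41 (SE 0.391, adjusted p = 0.0261), and without control GD9:00 replicate 1 or control GD9:12 replicate 2 or 3 it was not called (adjusted p up to 0.133). Ddx28 fell by 0.60 (SE 0.153, adjusted p = 0.0166) at that step, not called without control GD9:12 replicate 2 or 3 (adjusted p up to 0.0722), and turned to 0.02 with the authors' scaling. Ddx5, a splicing and transcription cofactor, rose over the arsenic span by 1.89 ± 0.492 (adjusted p = 0.0155), or by 1.29 with adjusted p = 0.0523 without arsenic GD9:12 replicate 2, the highest array at 11.26. Ddx50 rose over that span by 1.45 ± 0.446 (adjusted p = 0.0369). Ddx25, known from germ cells, fell over the control span by 0.81 (SE 0.236, adjusted p = 0.0425), a call that 11 of 22 omissions ended (adjusted p up to 0.158).

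Of the DHX helicases, Dhx16, which acts just before the first catalytic step, rose over the span in both arms. Control arrays of Dhx16 read 9.06, 9.10, 9.06 and 8.58, then 10.24, 9.83, 9.97 and 9.42, then 9.97, 9.73 and 9.83 by stage. Arsenic arrays read 8.82, 8.96, 8.48 and 8.54, then 9.37, 9.62 and 8.32, then 9.64, 10.42, 10.03 and 9.81. The GD9:12 arrays lay above all GD8:15 arrays in each arm. The difference over the span was 0.89 ± 0.26 (limma adjusted p = 0.0417) in controls, lost in 9 omissions (adjusted p up to 0.135), and 1.27 ± 0.241 (adjusted p = 0.00201) with arsenic, kept in all. The first control step was 0.92 ± 0.241 (adjusted p = 0.017), not called without control GD8:15 replicate 4 (adjusted p up to 0.0627).

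Dhx36, a helicase that unwinds G-quadruplexes, rose in controls at the first step by 1.26 ± 0.388 (limma adjusted p = 0.0359), lost in 6 omissions (adjusted p up to 0.121). Over the arsenic span Dhx36 rose by 1.36 ± 0.388 (adjusted p = 0.0256), lost in 4 (adjusted p up to 0.0758), and Dhx40 by 1.31 ± 0.276 (adjusted p = 0.00408), kept in all. Dhx58, a cytosolic sensor of viral RNA, rose in controls at the first step by 0.36 ± 0.0981 (adjusted p = 0.0212), lost without control GD8:15 replicate 1 or control GD9:00 replicate 3 or 4 (adjusted p up to 0.0662) and turned to -0.17 by the authors' scaling. Dhx9, the brightest of the family, had no call, with control means of Dhx9 at 9.81, 10.05 and 9.44 by stage.

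One control array at GD8:15, replicate 3, belongs to the code series of the GD9:00 arrays and gives the comparison within that series, without a test. It read 9.24 for Hnrnpu, 7.89 for Hnrnpa1, 10.58 for Snrpb2, 13.21 for Snrpf and 7.98 for Ddx56. Each value lay below the lowest of the 4 GD9:00 controls, at 9.83, 9.74, 10.86, 13.31 and 8.09. The control calls that picked these members used the same arrays, so this order was partly fixed in advance. For Hnrnpu, Hnrnpa1 and Ddx56 this array was also the highest of the GD8:15 controls. A single array cannot separate stage from code series. For Hnrnpl this array, at 9.68, lay above the lowest GD9:00 control at 9.48, and for Hnrnpa2b1 it read 11.46 against a lowest of 10.88. From GD9:00 to GD9:12, series C arrays alone gave 10 control and 5 arsenic calls, 1 higher in each, again without the share of all probes.

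Arsenic and control were compared at each stage, which is the question the study was built on. No member was called at any stage by limma (0 of 70 at each, as 0% of all 7833 probes). Unadjusted p was under 0.05 for 3 members at GD8:15 (4.29%, against 7.29% of all probes), 13 at GD9:00 (18.6%, against 12.6%) and 0 at GD9:12 (0%, against 1.28%). For the average over stages it was 6 (8.57%, against 5.72%), with 0 called (0% of all). The F test for a change of the arsenic difference between stages called 0 members (0% of all) and had 5 under an unadjusted 0.05 (7.14%, against 6.46%). The median member difference was -0.06, -0.13 and 0.07 at the 3 stages. With the authors' scaling these medians were 0.11, 0.05 and 0.10 while all probes had 0.21, 0.43 and 0.02, so the first pair changed sign.

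**Figure D4:**
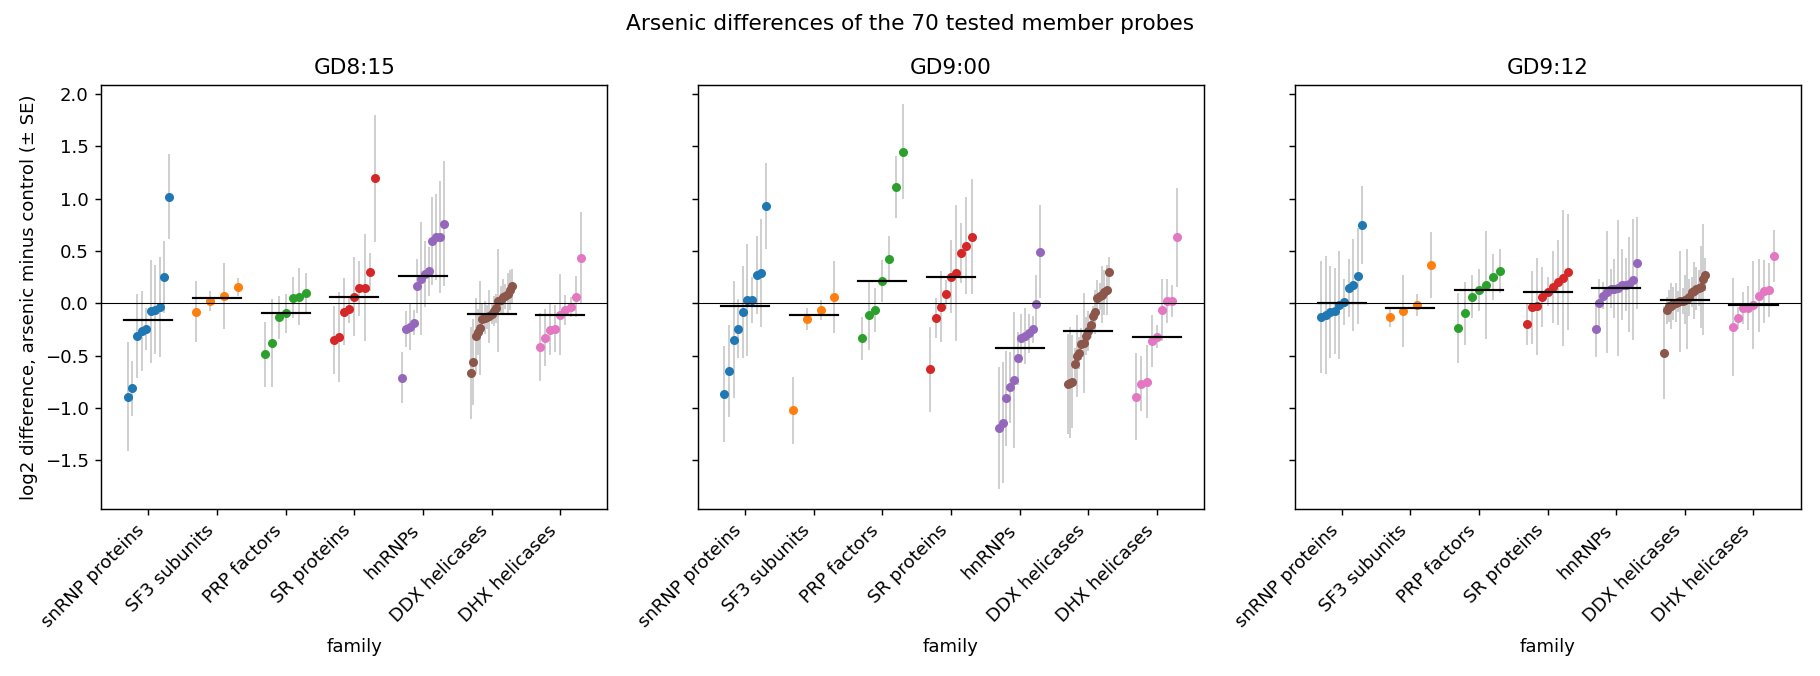
Log2 difference, arsenic minus control, with its SE (vertical axis) for the 70 tested member probes by family (horizontal axis) at 3 stages, with a bar at each family's median. At GD9:00 the hnRNP median was -0.43 and the SR median 0.26 (-0.17 with median centring); no single difference passed the adjusted threshold.

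At GD8:15, 3 h after the second injection, Snrpb2, Hnrnpr and Snrpb had the lowest p. Snrpb2 read 8.97 to 9.97 with arsenic and 9.66 to 10.77 in controls, a difference of -0.81 ± 0.259 (limma adjusted p = 0.504). Hnrnpr differed by -0.71 ± 0.246 (adjusted p = 0.544) and Snrpb by 1.02 ± 0.405 (adjusted p = 0.605). The groups of no member were apart at this stage (0%, against 3.84% of all probes). On series D arrays alone these 3 differences were -0.61, -0.32 and 1.01.

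No family had a called member. For the hnRNPs the arsenic difference was above 0 for 8 of 12 at GD8:15, 1 of 12 at GD9:00 and 11 of 12 at GD9:12, where 50.1%, 51.0% and 46.2% of all probes were, with medians of 0.26, -0.43 and 0.15. With median centring the first of these medians was -0.03, and with both other scalings the GD9:00 median stayed below 0 (-0.46 and -0.96). The swing between GD9:00 and GD9:12 was not limited to hnRNPs. DDX helicases had 31.6% and then 73.7% above 0, and the spliceosome genes outside these families, described below, 31.7% and 76.2%. PRP factors (57.1% and 71.4%) and DHX helicases (33.3% and 44.4%) moved less. For SF3 subunits, snRNP proteins and SR probes the share was the same at both stages. For the SR probes the GD9:00 median was 0.26, with 6 of 9 above 0, and it turned to -0.17 with median centring. Groups were apart for 8 members (11.4%, against 9.64% of all probes): Prpf6 and Prpf4b were higher with arsenic, and Ddx20, Ddx28, Hnrnpl, Ddx41, Dhx58 and Ddx5 lower. Prpf6, a bridge between the snRNPs of the tri-snRNP, read 10.71, 10.43 and 11.33 with arsenic and 10.36, 9.96, 9.26 and 9.27 in controls, a difference of 1.11 ± 0.298 (limma adjusted p = 0.243). Prpf4b read 10.74, 10.58 and 11.86 against the control values given above, 1.45 ± 0.453 (adjusted p = 0.262). Ddx20 read 7.63, 7.76 and 7.18 with arsenic, all under the lowest control at 7.80, a difference of -0.58 ± 0.155 (adjusted p = 0.243). Sf3b6 differed by -1.02 ± 0.317 (adjusted p = 0.262), Ddx28 by -0.48 ± 0.153 (adjusted p = 0.267) and Snrpd3 by 0.93 ± 0.41 (adjusted p = 0.366).

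The GD9:00 values moved with the weight given to single arrays. With array weights, 3 members were called: Prpf6 at 1.25 (limma adjusted p = 0.00666), Snrpd3 at 1.46 (adjusted p = 0.0185) and Dhx58 at -0.40 (adjusted p = 0.0344). Without arsenic GD9:00 replicate 2, Ddx24 was called at -0.65 (adjusted p = 0.0471). The share of all probes called in either setting is not given here, so these calls do not set the members apart. With arsenic GD8:15 replicate 3 and arsenic GD9:00 replicate 3 both left out no member was called, and Prpf6, Prpf4b and Ddx20 differed by 0.88, 1.07 and -0.43. With median centring Prpf6 differed by 0.38 and Prpf4b by 0.71, and Ddx28 turned to 0.02 with the authors' scaling.

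At GD9:12 the differences were small, from -0.47 to 0.75 over all members. Groups were apart for 5 members (7.14%, against 5.00% of all probes), Snrpa, Dhx9, Ddx24 and Prpf8 higher and Sf3a1 lower with arsenic. Snrpa, the U1 snRNP protein, read 9.94, 9.87, 10.24 and 9.94 with arsenic and 9.13, 9.25 and 9.37 in controls, a difference of 0.75 ± 0.373 (limma adjusted p = 1). Dhx9 differed by 0.45 ± 0.246 (adjusted p = 1). Ddx39b, an export helicase, differed by -0.47 ± 0.442 (adjusted p = 1), and by 0.01 with the code series as a block or without control GD9:12 replicate 1, whose value of Ddx39b was 11.42 where the other controls read 10.06 and 9.89.

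The average over stages was lowest in p for Hnrnpr, at -0.42 ± 0.15 (limma adjusted p = 0.865). Dhx58 followed at -0.16 ± 0.0597 (adjusted p = 0.865) and Ddx20 at -0.22 ± 0.0872 (adjusted p = 0.865), and both turned positive with the authors' scaling, to 0.11 and 0.03. Hnrnph2, the X-linked member, differed by -0.18 ± 0.118, -0.25 ± 0.128 and 0.07 ± 0.128 at the 3 stages, with adjusted p of 0.866, 0.434 and 1.

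Other genes of RNA processing, from lists chosen by name, give the setting. Of 107 spliceosome genes and splicing regulators outside these families, 63 were tested. In controls 5 rose and 5 fell at the first step, 11 fell and 0 rose at the second, and 2 rose and 9 fell over the span, which is 15.9%, 17.5% and 17.5% of the list beside 15.0%, 11.3% and 7.71% of all probes. The arsenic arm gave 2 up, 1 down, and 6 up and 7 down, or 3.17%, 1.59% and 20.6% beside 4.21%, 3.88% and 13.8%. Sf1, the branch point binding protein, rose at the first control step by 0.83 ± 0.126 (limma adjusted p = 0.000488) and fell at the second by 0.75 (SE 0.136, adjusted p = 0.00212). Plrg1 and Bcas2, partners in the PRP19 complex, differed by -2.00 (SE 0.388, limma adjusted p = 0.00307) and -1.93 (SE 0.435, adjusted p = 0.00848) at the second control step. The list median at that step was -0.18, the same as for the members to this precision.

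Of 59 genes of the exon junction, export and decay, 32 were tested with 35 probes. At the first control step 4 probes rose and 3 fell (20.0%, beside 15.0% of all), and at the second 2 rose and 6 fell (22.9%, beside 11.3%), among them Nxf1, the export receptor, which rose by 1.05 ± 0.246 (limma adjusted p = 0.0098) and fell by 1.33 (SE 0.266, adjusted p = 0.00386). Exosc5, an exosome subunit, fell over the span by 1.99 (SE 0.254, adjusted p = 0.000164) in controls and 2.16 (SE 0.235, adjusted p = 2.94e-05) with arsenic. Of 15 other RNA helicases 7 were tested, with 3 rises and no fall at the first control step (42.9%, beside 15.0% of all) and no call at the second. Eif4a1, the helicase of translation initiation, rose with arsenic at the first step by 1.81 ± 0.36 (adjusted p = 0.0075) and fell at the second by 1.31 (SE 0.36, adjusted p = 0.0482). No gene of the 3 lists was called between arsenic and control at any stage.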

How the data were processed

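RNA of 22 samples was amplified, labelled with biotin and read on one-colour CodeLink arrays of 10500 probes, per the labels' protocols. The authors deposited linear intensities, scaled to a mean near 600, 500 and 1000 at the 3 stages, as the values show; the scanner software, background correction and scaling method are not given in the sources used here. Values of 1 or 2 (838 in all) were read as placeholders and set missing, and all others ran from 56 to 85027.

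Intensities were taken to log2 and quantile-normalised. Probes with at least 2 values per group and a mean above the lowest 25% were tested (7833) with limma 3.58.1 in R 4.3.3, as 6 group means over all 22 arrays, with Benjamini-Hochberg adjustment over all of them and a threshold of 0.05. An array stretch was called a low run where the running median over 31 probes lay below -0.3 (log2). The number of arrays limits the precision: the median SE of an arsenic difference was 0.184, 0.198 and 0.198. Gene names came from the platform annotation, which can be old, and 8 probes with several symbols and 1114 with none were left unnamed. The procedure was tested on simulated data.

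The members and lists were chosen with earlier results of these data known. Named members were those called in a comparison (the 12 of lowest p where more were called in a direction), the 3 of lowest p in each direction, the 2 brightest of each family and the gene with more than 1 probe. Alternatives were the authors' scaling, median centring, other filters, array weights, the code series (arrays sorted by the leading digits of the number in their title) as a block, masked low runs, kept placeholders and each array left out. Figures were drawn with matplotlib 3.10.9 in Python 3.11.15.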

Additional observations from a re-analysis of the deposited data

Results flagged for a closer look

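In 15 of 160 groups of 4 arrays, over 39 named members and the member median, 1 array lay far from the other 3 by Dixon's criterion, which chance meets in about 1 of 20 groups. Among GD8:15 controls, Prpf8 read 9.063 on replicate 1 where the others read 8.117 to 8.244, and Dhx16 read 8.584 on replicate 4 where the others read 9.057 to 9.099. Replicate 3, the series C array, was high for Ddx28 (8.05, others 7.69 to 7.714), Ddx5 (8.206, others 7.382 to 7.518) and Snrpa1 (9.885, others 7.983 to 8.28). Among GD8:15 arsenic arrays, replicate 1 stood apart for Ddx24 (7.108), Prpf3 (13.49) and Srsf6 (9.09). Among GD9:00 controls, Snrpd2 read 9.427 on replicate 1, Hnrnpl read 9.484 on replicate 3, and replicate 2 was low for Srsf11 (7.769), Ddx5 (8.753) and Ddx24 (7.975). Among GD9:12 arsenic arrays, replicate 2 was high for Hnrnpa1 (9.513) and low for Prpf3 (11.82).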

How the results depend on the processing

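No paired analysis was possible because the labels give no replicate numbers, and replicates were numbered in accession order. Counts of called members from GD8:15 to GD9:00, GD9:00 to GD9:12 and GD8:15 to GD9:12 were 15, 15 and 7 in controls and 5, 7 and 19 with arsenic. The alternatives in this section count members alone, without the share of all probes called in the same setting. With the authors' scaling they were 37 (second control step), 20 (control span), 0 (first arsenic step) and 29 (second arsenic step). With median centring the control span gave 12 and the first arsenic step 0. Array weights gave 24 for the control span, 15 and 24 for the arsenic steps, and 3 for arsenic against control at GD9:00. With the code series as a block, the 4 stage comparisons with GD8:15, which then rest on 1 GD8:15 array of series C, gave 0. With low runs masked the control span gave 11. Chosen after seeing the data, leaving out both arsenic GD8:15 replicate 3 and arsenic GD9:00 replicate 3 gave 16 for the control span and 4 for the second arsenic step. Under the authors' scaling a stage difference includes the change of target mean, near 600, 500 and 1000 by stage. What else moved these counts was not tested.

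Leaving out each array in turn gave 8 to 17 for each control step, 2 to 12 for the control span, 3 to 8 and 3 to 9 for the arsenic steps, 10 to 19 for the arsenic span, and 0 to 1 for arsenic against control at GD9:00. The first control step fell to 8 without control GD8:15 replicate 1 or 4, and the second to 8 without control GD9:12 replicate 3. The control span fell to 2 without control GD9:12 replicate 3 and rose to 12 without arsenic GD9:00 replicate 3. The first arsenic step had 3 calls without arsenic GD9:00 replicate 1 or 2 and 8 without replicate 3. The second arsenic step had 3 without arsenic GD9:00 replicate 3 or arsenic GD9:12 replicate 4, and the arsenic span 10 without arsenic GD9:12 replicate 2 and 12 without replicate 3.

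Some named differences changed sign. With the authors' scaling they were 0.0233 and 0.0212 for Ddx28 (arsenic against control at GD9:00, and the second control step), 0.11 for Dhx58 and 0.0282 for Ddx20 (average), -0.17 for Dhx58 (first control step), 0.19 for Sf3a2 (second control step), and 0.59 and 0.43 for Prpf3 (second arsenic step and span). Median centring gave Prpf3 0.33 and 0.43. The block gave 0.0121 for Ddx39b (arsenic against control at GD9:12), 0.0149 for Hnrnpd (first arsenic step), and -0.14 for Hnrnpr and -0.00963 for Prpf38b (arsenic span). Keeping placeholders gave -1.447 for Prpf4b (second control step), and leaving out single arrays gave Ddx39b at GD9:12 a range from -0.7488 to 0.0125, the latter without control GD9:12 replicate 1.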
